A study of Mus musculus with 48 samples.

Results

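The anaphase-promoting complex is the ubiquitin ligase that ends mitosis, and its transcripts were followed here at the level of genes and of isoforms in single cells of the mouse embryo. The 10 genes were 9 subunits (*Anapc2*, *Anapc11*, *Anapc1*, *Anapc4*, *Anapc5*, *Cdc16*, *Cdc23*, *Cdc27* and *Anapc13*) and the coactivator *Cdc20*. They were taken by name, with each of their GENCODE M21 transcripts that was present in the deposited data. This made 10 of 21435 genes and 46 of 52799 transcripts. Not all annotated transcripts were present, for example 2 of 5 for *Cdc16* and 6 of 12 for *Anapc4*. In all 48 cells were taken from C57 wild-type embryos at embryonic day 10, from the aorta-gonads-mesonephros (AGM) region, and polyA RNA of each cell was sequenced as full-length cDNA on a Nanopore instrument. By title, 24 cells were AEC and 24 were HEC, abbreviations that commonly stand for arterial endothelial cells and hemogenic endothelial cells, the endothelium from which blood arises. HEC cells are tagged as hematopoietic stem cells in the cell type field, so groups follow the titles. No treatment or altered allele is given for either group.

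Because the labels give no animals, a group is 1 sample here. No difference was tested, and every SD below describes the spread between the 24 cells of a group. The genes were selected on measured values of these same cells, and which levels or isoform shares weighed in that choice is not recorded, so both are given as a description. Levels are in reads per 10000 reads of the cell.

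The complex attaches ubiquitin chains to cyclins, securin and other proteins and so sends them to the proteasome. A cullin and a RING subunit form its catalytic core, large platform subunits hold that core, and an arm of subunits with tetratricopeptide repeats binds the coactivator that brings in the targets. Cdc20 is the coactivator of mitosis and is itself held back by the spindle checkpoint, and Cdh1, encoded by *Fzr1*, takes over at the end of mitosis and in G1.

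The isoforms of 4 of the genes part at the short stretches printed here, which are shown because the reads of a cell were often assigned to 1 form alone. Most of these isoforms also differ in where the annotated transcript begins and ends. In *Anapc5* (mm10 chr5:122787459-122821339, minus strand), exon 10 of Anapc5-201 spans chr5:122800451-122800632 and begins at any of 3 acceptors. Each line starts with 15 bases of the exon before, capitals mark exon bases that Anapc5-218 lacks, and the line ends with 15 bases that all 3 isoforms share.
Anapc5-201: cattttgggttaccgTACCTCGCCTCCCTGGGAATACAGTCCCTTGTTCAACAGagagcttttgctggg
Anapc5-205: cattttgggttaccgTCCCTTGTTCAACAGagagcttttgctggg
Anapc5-218: cattttgggttaccgagagcttttgctggg
Anapc5-201 thus has 39 bases more than Anapc5-218 and 24 more than Anapc5-205 at this site, and Anapc5-205 has 15 more than Anapc5-218. All of these bases lie in the coding sequence.

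*Cdc16* (chr8:13757676-13781938, plus strand) had 2 isoforms in the tables. Cdc16-201 codes for the protein in 18 exons, whereas Cdc16-205 is annotated as a retained intron of 2 exons and has no coding sequence. The lines show where they part, with the first 15 bases of exon 17 of Cdc16-201 in capitals, preceded by 15 bases of the exon before or by 30 intron bases.
Cdc16-201: gactatttccacacaGCTCTTGGTCTCAGG
Cdc16-205: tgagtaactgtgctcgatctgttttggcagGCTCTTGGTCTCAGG
Cdc16-205 keeps the last 226 bases of that intron (chr8:13779002-13779227), and its other 658 of 884 bases are also exon bases of Cdc16-201.

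In *Anapc4* (chr5:52834012-52867797, plus strand), Anapc4-207 carries an extra exon 3 of 73 bases (chr5:52835891-52835963) that Anapc4-201 lacks. The lines start with the same 15 bases of the exon before, and capitals mark a stop codon that follows 11 coding bases of the extra exon.
Anapc4-207: gaccagacggcaaacgtcttactgtaTAA
Anapc4-201: gaccagacggcaaacttttggcctttgctc
The annotated coding sequence is 246 bases in Anapc4-207, a transcript of the nonsense-mediated decay class, and 2421 bases in Anapc4-201.

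In *Cdc27* (chr11:104502745-104550620, minus strand), Cdc27-203 adds 18 coding bases, in capitals, to the start of exon 9 of Cdc27-201.
Cdc27-201: gcacctacaaaaaagtctgttgcaagaatg
Cdc27-203: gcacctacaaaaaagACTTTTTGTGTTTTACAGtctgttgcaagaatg

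Depth varied widely, from 13261 to 4883854 reads in AEC cells (median 769716) and from 96410 to 8897958 in HEC cells (median 724674). AEC cells had a median of 8317 genes above 0, and HEC cells had 10645. The summed level of 7 endothelial markers was 26.0 ± 17.2 in AEC and 14.5 ± 10.1 in HEC cells (SD, n = 24 each), and that of 5 hemogenic markers, among them *Runx1*, was 1.38 ± 1.41 and 8.96 ± 3.78. *Col1a1* and the other mesenchymal markers summed to a median of 0.669 in AEC and 0.301 in HEC cells, and the highest sums were 78.1 in AEC 19, 37.8 in AEC 11 and 24.2 in AEC 20. These 3 cells and HEC 20, with a mesenchymal sum of 5.93, had endothelial sums of 0.95 to 2.78 and are the 4 cells low in *Cdh5* and *Kdr* left out in an alternative. Erythroid markers summed to a median of 9.26 in AEC and 26.4 in HEC cells, with 135.7 in AEC 10 and 122.7 in HEC 9, and macrophage markers to 0.126 and 0.894. The part of other cell types in the results below was not tested. AEC 12, with 40206 reads, held the highest AEC value of *Anapc2*, *Anapc1*, *Anapc5* and *Cdc23*, so values without it are given where it decides a result.

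The complex as a whole was at a like level in both groups, and 1 of the 10 genes, *Cdc20*, stood past a 2-fold difference. The 9 subunits together held 9.87 ± 6.46 reads per 10000 in AEC cells and 9.11 ± 2.08 in HEC cells (SD, n = 24 each). The log2 ratio of the group means, HEC over AEC with a pseudocount of 0.1, was -0.12 for this sum and 0.05 without AEC 12. Of the 10 genes, 4 had a ratio above 0, against 52.4% of 8695 genes with a mean of at least 0.1. A log2 ratio of at least 1 was found for 1 of the 10, against 6.35% of all genes, and a ratio of at most -1 for 0 of the 10, against 9.4%. For none of the 10 did the means differ by more than the SD of both groups. The SD was larger in AEC cells for 8 of the 10 genes, a count for which the share of all genes was not computed. The subunit sum varied by 65.4% of its mean in AEC cells and by 22.8% in HEC cells. Without AEC 12 the AEC sum was 8.79 ± 3.76.

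**Figure D1:**
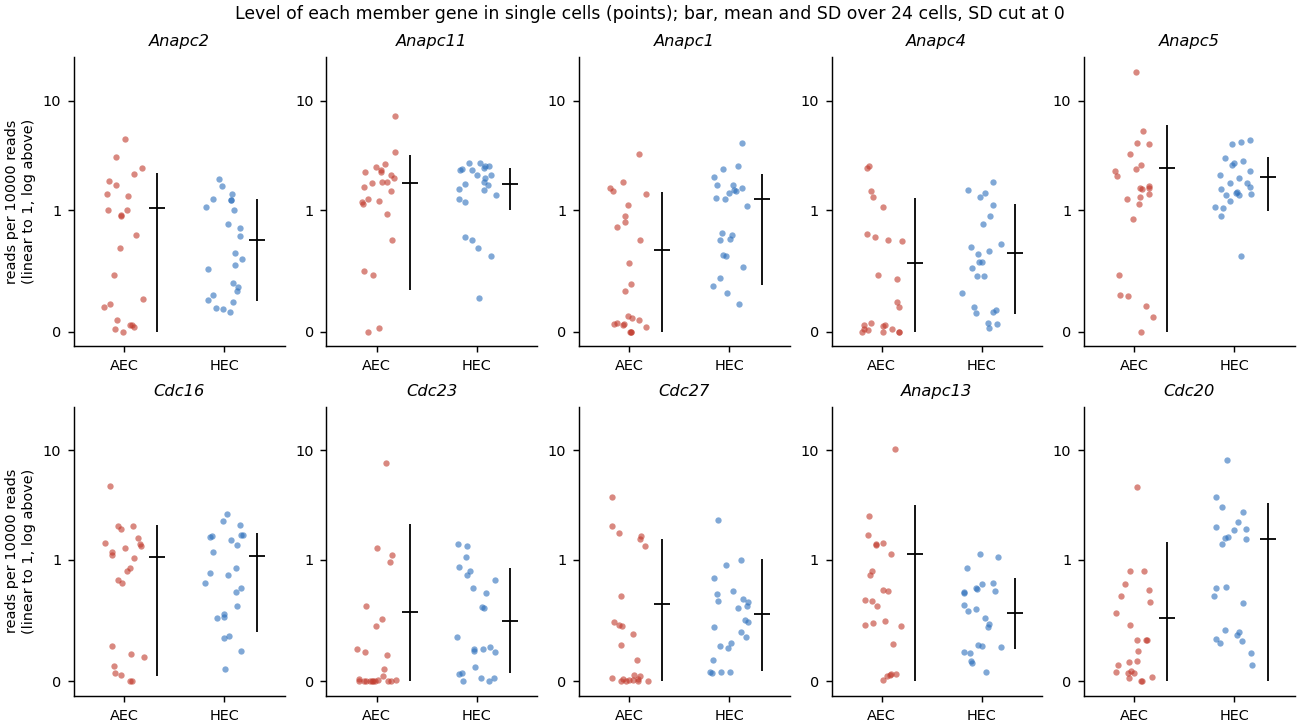
Level of each gene in reads per 10000 reads (linear to 1, log scale above) in 24 AEC and 24 HEC cells. Points are cells and bars give the mean and SD, with the SD cut at 0. The groups overlap for every gene, and 12 HEC cells but 1 AEC cell reach 1 for *Cdc20*.

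*Anapc2* (chr2:25272478-25285915, plus strand) encodes the cullin of the catalytic core. Its level ran from 0 to 4.48 in AEC cells (median 0.871) and from 0.166 to 1.90 in HEC cells (median 0.622). The means were 1.05 ± 1.12 and 0.754 ± 0.50, a log2 ratio of -0.43, and the HEC cells lay wholly within the AEC range. The ratio was -0.23 without AEC 12 and 0.08 as a difference of mean log2 values. *Anapc11* (chr11:120598421-120608198, plus strand), the RING subunit that receives the ubiquitin-loaded enzyme, ran from 0 to 7.25 in AEC cells (median 1.71) and from 0.276 to 2.70 in HEC cells (median 1.78). Its means of 1.78 ± 1.44 and 1.72 ± 0.721 gave a log2 ratio of -0.04. Both core genes had their highest cell among the AEC cells, as did every other subunit but *Anapc1*.

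*Anapc1* (chr2:128610104-128687391, minus strand), the largest platform subunit, was the subunit with the highest ratio. It ran from 0 to 3.23 in AEC cells (median 0.364) and from 0.231 to 4.14 in HEC cells (median 1.18), and 22 of 24 HEC cells were above the AEC median. The means were 0.669 ± 0.798 and 1.27 ± 0.885, a log2 ratio of 0.83 that was 1.06 without AEC 12 and 0.69 without HEC 4. *Anapc1* was at 0 in 3 AEC cells and in 0 HEC cells. In HEC cells its level had a Spearman correlation of -0.48 with the number of genes above 0 and of -0.30 with reads (n = 24), and of -0.14 and 0.07 in the 18 HEC cells with the most genes. The part of these measures in the ratio was not tested. For the other subunits, the HEC cells above the AEC median numbered 9 (*Anapc2*), 13 (*Anapc11*, *Anapc5*), 17 (*Anapc4*), 10 (*Cdc16*, *Anapc13*), 20 (*Cdc23*) and 19 (*Cdc27*). No share of all genes was computed for such counts, here or for *Cdc20* below. As a difference of mean log2 values, 76.7% of all genes were above 0.

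*Anapc4* and *Anapc5* encode the other platform subunits. *Anapc4* ran from 0 to 2.53 in AEC cells (median 0.224) and from 0.0274 to 1.83 in HEC cells (median 0.574). Its means were 0.563 ± 0.737 and 0.648 ± 0.501, a log2 ratio of 0.17, and 17 of 24 HEC cells were above the AEC median. The direction depended on the setting, with 0.67 as a difference of mean log2 values, -0.45 by pooled reads and -0.29 without the 6 AEC and 6 HEC cells that had the fewest genes. *Anapc5* ran from 0 to 18.2 in AEC cells (median 1.58) and from 0.622 to 4.38 in HEC cells (median 1.68). Its means of 2.42 ± 3.62 and 2.02 ± 1.03 gave a log2 ratio of -0.25, and 31.3% of the AEC sum came from AEC 12. Without AEC 12 the ratio was 0.21, on the other side of 0.

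Among the tetratricopeptide genes, whose products stack into the arm that holds the coactivator, *Cdc16* was closest to equal. It ran from 0 to 4.71 in AEC cells (median 0.984) and from 0.102 to 2.60 in HEC cells (median 0.885), and the means of 1.06 ± 1.02 and 1.08 ± 0.674 gave a log2 ratio of 0.02. *Cdc27* ran from 0 to 3.72 (median 0.239) and from 0.0690 to 2.32 (median 0.492) in AEC and HEC cells. Its means were 0.633 ± 0.927 and 0.556 ± 0.467, a log2 ratio of -0.16 that was 0.13 without AEC 18. For this gene the medians and the means therefore ordered the groups differently, as they also did for *Anapc11*, *Anapc5*, *Cdc16* and *Cdc23*.

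*Cdc23* (chr18:34630951-34651735, minus strand) was at 0 in 9 AEC cells and 2 HEC cells. It ran up to 7.71 in AEC cells (median 0.0337) and up to 1.38 in HEC cells (median 0.320). The means were 0.566 ± 1.57 and 0.50 ± 0.433, a log2 ratio of -0.15, and AEC 12 held 56.8% of the AEC sum. Without that cell the ratio was 0.76. With all 24 AEC cells kept, 20 of 24 HEC cells were above the AEC median. *Cdc23* shares 1271 exon bases with *Kif20a*, a mitotic kinesin gene on the other strand, and no source used here says whether counting used strand, so reads of these genes may not be fully told apart. Their Spearman correlation was -0.29 in AEC and -0.54 in HEC cells (n = 24 each).

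*Anapc13* (chr9:102626296-102634425, plus strand) encodes a small subunit that steadies the arm. It ran from 0.0117 to 10.2 in AEC cells (median 0.664) and from 0.0794 to 1.12 in HEC cells (median 0.585). The means were 1.14 ± 2.02 and 0.559 ± 0.294, a log2 ratio of -0.91, the lowest of the 10. AEC 21, with 50126 reads, held 37.3% of the AEC sum, and without it the ratio was -0.36. It overlaps *Cep63* on the other strand by 239 exon bases.

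At least 1 read of each of the 9 subunits was found in 13 AEC and 22 HEC cells. With every cell thinned to 10000 random reads, the median number of subunits found was 4 in AEC and 5 in HEC cells. No share of all genes was computed for these counts or for the counts of cells at 0 given above. HEC cells had more genes above 0 in general, with a median of 10645 against 8317 in AEC cells. From cell to cell the subunits were weakly correlated. Over their 36 pairs the median Spearman correlation was 0.04 in AEC and -0.02 in HEC cells, with ranges of -0.36 to 0.55 and -0.47 to 0.36. These correlations are over the 24 cells of a group, which differ in depth, and in sparse counts a weak correlation is no finding.

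*Cdc20* (chr4:118432901-118437352, minus strand) had the highest ratio of the 10 genes. Its level ran from 0 to 4.60 in AEC cells (median 0.293) and from 0.133 to 8.17 in HEC cells (median 1.08). It reached 1 in 1 AEC cell, AEC 13, and in 12 HEC cells, and 22 of 24 HEC cells were above the AEC median. The means were 0.519 ± 0.921 and 1.55 ± 1.72 (SD, n = 24 each), a log2 ratio of 1.42. This ratio was 1.90 without AEC 13, which held 37.0% of the AEC sum, and 1.14 without HEC 2. With a pseudocount of 1 it was 0.75, a setting under which 0.242% of all genes reached 1. *Cdc20* shares 53 exon bases with *Elovl1* on the other strand, with the same limit on strand as for *Cdc23*. In cells thinned to 10000 reads, *Cdc20* was found in 8 AEC and 14 HEC cells, again without a share of all genes.

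The level of *Cdc20* followed other mitotic genes within HEC cells. With the summed level of 15 G2/M genes, a list that does not hold *Cdc20*, its Spearman correlation was 0.72 in HEC and 0.18 in AEC cells (n = 24 each). Leaving out the 6 AEC and 6 HEC cells that had the fewest genes gave 0.69 and 0.35. With the sum of 17 known targets of the complex it was 0.75 in HEC and 0.41 in AEC cells. The G2/M sum itself was 14.4 ± 12.5 in AEC and 14.9 ± 8.45 in HEC cells, and *Cdc20* amounted to a median of 3.52% of it in AEC and 7.70% in HEC cells. The difference between the groups in these correlations was not tested. The subunit sum had a correlation of 0.42 with the G2/M sum in AEC and 0.05 in HEC cells. Leaving out the same few-gene cells gave 0.64 in AEC and 0.11 in HEC cells. With *Cdc20* the subunit sum had a correlation of -0.12 in AEC and -0.11 in HEC cells.

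**Figure D2:**
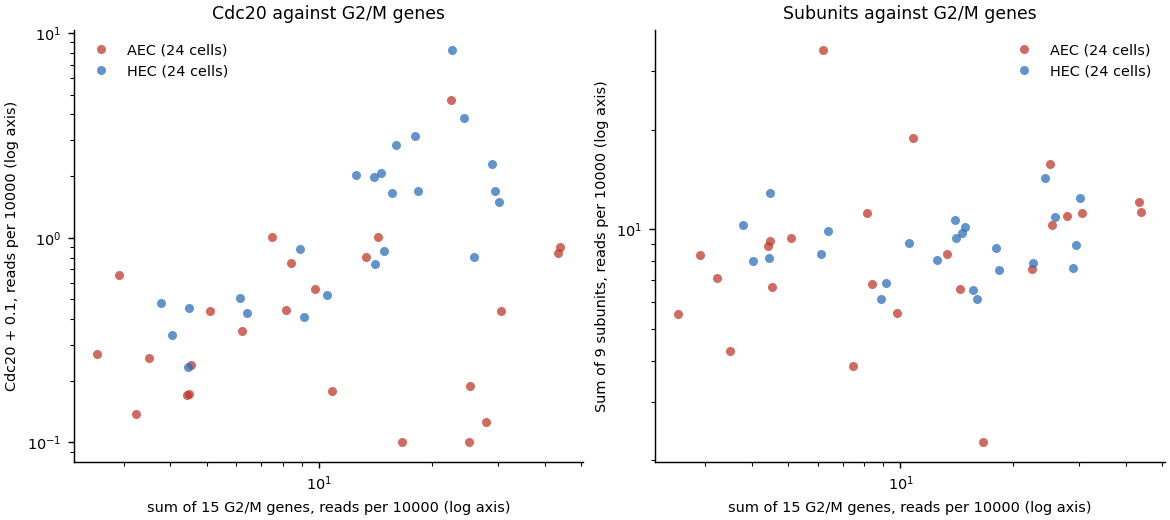
*Cdc20* (left, with 0.1 added) and the sum of the 9 subunits (right) against the sum of 15 G2/M genes, in reads per 10000 on log axes, one point per cell. In the 24 HEC cells the Spearman correlation with the G2/M sum is 0.72 for *Cdc20* and 0.05 for the subunit sum. In the 24 AEC cells it is 0.18 for *Cdc20* and 0.42 for the subunit sum.

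Over all 48 cells, the 5 genes with the pattern most like that of *Cdc20*, among 3295 genes, were *Hmgb2*, *Ccnb1*, *Cdca8*, *Kif20a* and *Tubb4b*, with Spearman correlations of 0.73, 0.71, 0.69, 0.67 and 0.66. *Ccnb1* encodes cyclin B1, which the complex degrades, and *Cdca8* encodes borealin of the chromosomal passenger complex. The genes most like the subunit sum, among 3287 genes, were *Sae1*, *Spg7*, *Ddost*, *Kmt2a* and *Kdelc1*, with lower correlations of 0.55, 0.53, 0.49, 0.48 and 0.47. Within groups these ranged from 0.51 to 0.62 in AEC cells and from 0.15 for *Ddost* to 0.56 for *Sae1* in HEC cells, and for the genes most like *Cdc20* from 0.46 to 0.60 and from 0.60 to 0.81. Cells share library preparation and differ in depth, so these are descriptions of likeness only.

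Promoters of many G2/M genes carry a cell cycle genes homology region, TTTGAA, and CCAAT boxes. The 80 bases before the RefSeq start of *Cdc20* (GRCm38.p6 chr4:118437344-118437423, minus strand) hold these motifs, shown in capitals.
Cdc20: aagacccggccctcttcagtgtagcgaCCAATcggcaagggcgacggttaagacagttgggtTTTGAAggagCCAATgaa
TTTGAA begins 18 bases before the start, and CCAAT begins 53 and 8 bases before it. Both motifs were searched on both strands, from 250 bases before to 50 bases after each start. TTTGAA was in 17.9% and CCAAT in 37.4% of 32851 promoters, and 6.95% held both. Of the 9 of 10 genes with a promoter in the table, 1 held TTTGAA, namely *Cdc20*, and 4 held CCAAT. A match of letters is a description and not a site of binding.

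Isoform use differed most for a pair of subunits, *Anapc5* and *Cdc16*. An isoform's share is taken over all cells of a group, as a percent of the summed level of its gene. Among the 9 members with a mean high enough for this comparison, 2 had an isoform whose share differed by at least 20 percentage points, against 17.8% of 2207 genes, so the members as a set lay near the background. The comparison required a mean of 0.5 in each group, and *Cdc23* lay just below it in HEC cells.

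**Figure D3:**
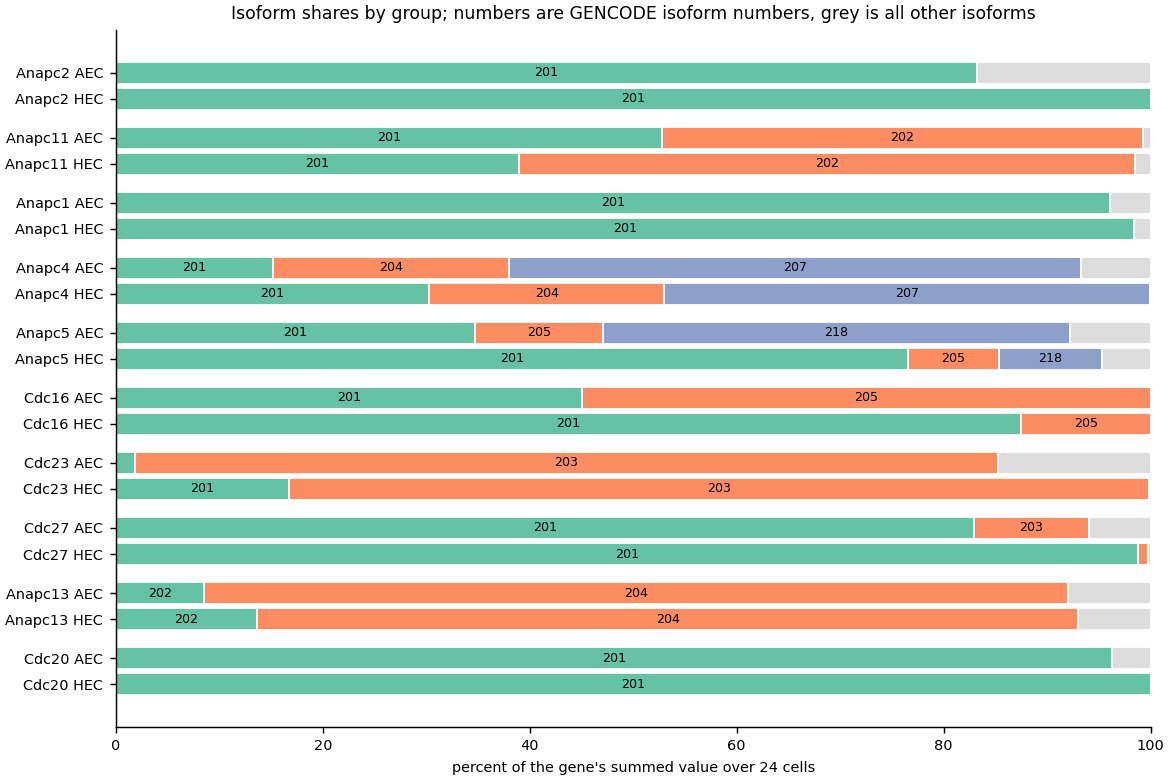
Share of each isoform in the summed level of its gene, in percent, for 24 AEC and 24 HEC cells. Coloured segments are isoforms with at least 10% in either group, with their GENCODE numbers, and grey is the rest. Cdc16-201 makes up 45.0% in AEC and 87.4% in HEC cells.

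Cdc16-201, the coding form, made up 45.0% of *Cdc16* in AEC cells and 87.4% in HEC cells, and Cdc16-205, the retained intron form printed above, the other 55.0% and 12.6%. By reads, Cdc16-205 held 1382 of the 3044 *Cdc16* reads of AEC cells and 363 of the 3437 of HEC cells, which are 45.4% (Clopper-Pearson 95% interval 43.6 to 47.2, counting error only) and 10.6% (9.55 to 11.6). Among cells with at least 10 reads of the gene, it was the highest isoform in 7 of 15 AEC cells and 2 of 23 HEC cells. AEC 18, with 181 *Cdc16* reads, and AEC 9, with 71, had it alone, and in AEC 16 it made up 261 of 263 reads. Cdc16-201 held at least 95% in 4 AEC and 13 HEC cells. The per-cell share of Cdc16-201 was 52.9% ± 38.7 in AEC (SD, n = 15) and 84.7% ± 23.9 in HEC cells (SD, n = 23), so the ranges overlapped. The share difference of 42.4 points was 32.2 without AEC 18 and unchanged without AEC 12.

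The coding isoforms of *Anapc5* parted by the acceptor of exon 10. Anapc5-201, with the longest exon, made up 34.7% in AEC and 76.5% in HEC cells. Anapc5-218, which lacks all 39 bases, made up 45.2% and 9.95%, and Anapc5-205 made up 12.3% and 8.78%. AEC 12, in which all 73 *Anapc5* reads were Anapc5-218, held 69.3% of the AEC value of this isoform. Without AEC 12 the AEC shares were 50.6% for Anapc5-201, 20.2% for Anapc5-218 and 17.9% for Anapc5-205, so the difference in Anapc5-201 was 26.0 points in place of 41.8. By pooled reads, which weigh cells by depth, it was 17.7 points.

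In single cells, reads of Anapc5-205 were found in 8 and reads of Anapc5-218 in 26 of the 48 cells. HEC 5 was the 1 cell with both, with 19 and 444 reads. Such a count was not made for other genes, so it is not given as a trait of *Anapc5*. In cells with at least 10 reads of the gene, a single isoform often held at least 95%. In AEC cells this was so in 22.2% for *Anapc11*, 38.9% for *Anapc5* and 100% for *Cdc20*, and in HEC cells in 0%, 43.5% and 100%. In AEC 18, Anapc5-205 made up 197 of 201 reads, and in AEC 2 it made up 140 of 158. HEC 13 had it in 52 of 67 reads. In cells with at least 10 reads of the gene, Anapc5-201 was the highest isoform in 10 of 18 AEC and 20 of 23 HEC cells, Anapc5-218 in 5 and 0, and Anapc5-205 in 2 and 3. The per-cell share of Anapc5-201 was 45.1% ± 35.6 (SD, n = 18) and 76.5% ± 28.2 (SD, n = 23).

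**Figure D4:**
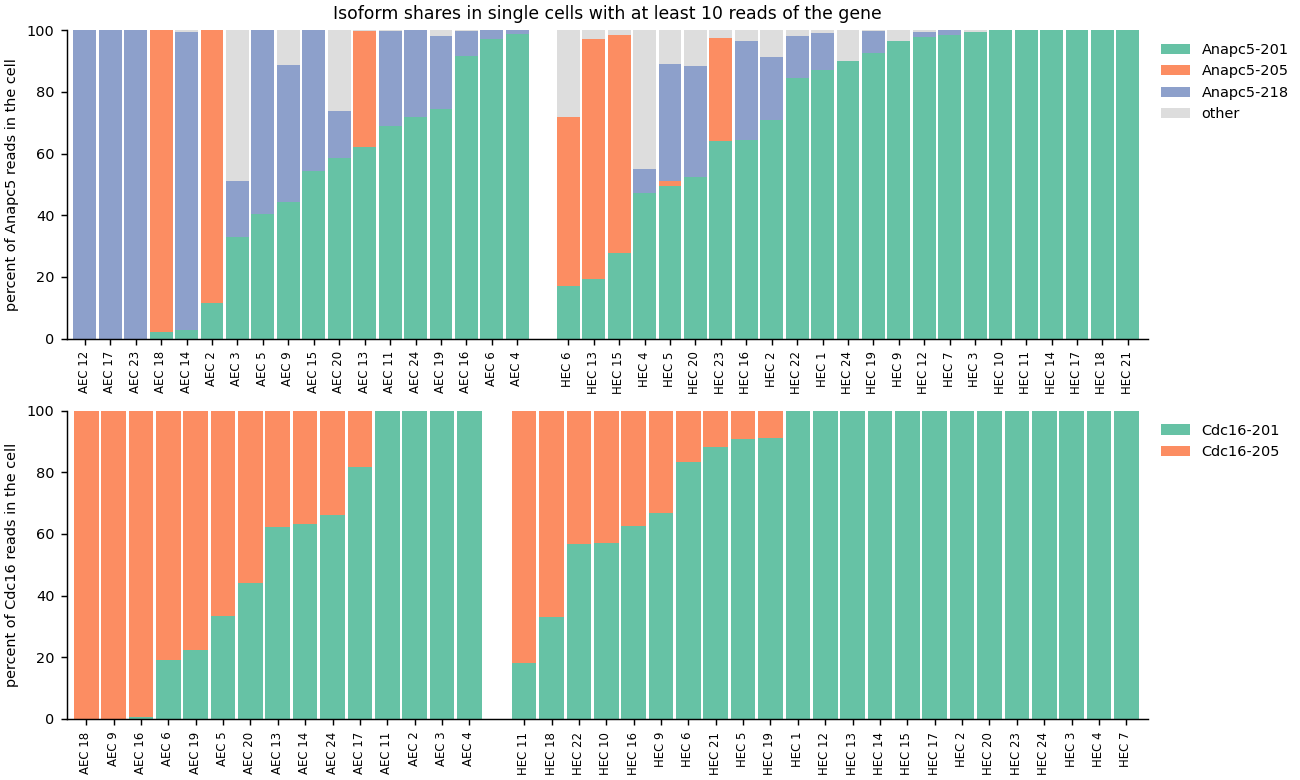
Percent of the reads of *Anapc5* (top) and *Cdc16* (bottom) by isoform in each cell with at least 10 reads of the gene, ordered by the share of isoform 201 within AEC and HEC cells. Cdc16-205 is the highest isoform in 7 AEC and 2 HEC cells, and HEC 5 is the cell with both Anapc5-205 and Anapc5-218.

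*Anapc4* was the gene with the lowest share of coding transcripts in both groups. Anapc4-201 made up 15.2% in AEC and 30.3% in HEC cells. This difference of 15.1 points was 8.67 without HEC 15, and by pooled reads the shares were 24.8% and 28.1%. Anapc4-207, the form with the early stop codon printed above, made up 55.3% and 46.9%, and Anapc4-204, a retained intron form of 2 exons, 22.8% and 22.7%. AEC 19 held 81.5% of the AEC value of Anapc4-204. Among cells with at least 10 reads, Anapc4-207 was the highest isoform in 6 of 11 AEC and 9 of 19 HEC cells, and Anapc4-201 in 2 and 7. The per-cell share of Anapc4-201 was 22% ± 27.7 (SD, n = 11) and 34.2% ± 37.7 (SD, n = 19), a difference smaller than either spread.

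*Anapc11* used a pair of isoforms with the same coding sequence of 252 bases, Anapc11-201 of 3229 bases and Anapc11-202 of 962 bases. Anapc11-201 made up 52.7% in AEC and 39.0% in HEC cells, and Anapc11-202 made up 46.5% and 59.5%. Without AEC 24 the difference in Anapc11-201 went from -13.7 to -6.81 points. Most cells held a mixture, since a single isoform reached 95% in 4 of 18 AEC and 0 of 23 HEC cells. The isoforms Anapc13-204 and Anapc13-202 also share their coding sequence, of 222 bases. Anapc13-204 made up 83.5% and 79.3% in AEC and HEC cells, and Anapc13-202 made up 8.54% and 13.7%. AEC 1 held 60.2% of the AEC value of Anapc13-202, and the difference of 5.13 points was 10.1 without AEC 1 and 0.0553 without AEC 21.

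In the remaining genes 1 isoform dominated. Anapc1-201 made up 96.1% and 98.4%, and Cdc20-201 made up 96.3% and 100%, in AEC and HEC cells. Anapc2-201 made up 83.2% in AEC and 100% in HEC cells, and 100% in both without AEC 12. Cdc27-201 made up 82.9% and 98.8%, and Cdc27-203, with the 18 extra bases, 11.1% and 0.939%, with 95.5% of its AEC value in AEC 15. Cdc23-203 made up 83.4% and 83.1%, and Cdc23-201 made up 1.83% and 16.7%, with 4 reads in AEC and 109 in HEC cells. Without AEC 12 the AEC share of Cdc23-203 was 65.8%.

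The other 5 subunits of the complex lay within 2-fold, with log2 ratios of 0.33 for *Anapc7*, -0.48 for *Anapc10*, -0.25 for *Anapc15*, -0.05 for *Anapc16* and 0.13 for *Cdc26*. The ratio of *Anapc10* was -0.16 without AEC 9. Its medians, 0.0587 in AEC and 0.348 in HEC cells, ordered the groups the other way from its means. The same held for *Anapc7*, *Anapc15* and *Anapc16*, but not for *Cdc26*. *Anapc10* helps the coactivator to bind targets. Of 13 regulators, 5 were higher and 8 lower in HEC cells, beside 52.4% of all genes above 0. Their median log2 ratio was -0.24, beside 0.04 over all genes. Under median-of-ratios scaling it was -0.42, where the median of all genes was -0.19. Of the regulators 0 were past 2-fold, beside 6.35% of all genes higher and 9.4% lower. *Bub1b* and *Trip13*, which act in the spindle checkpoint, had ratios of 0.92 and 0.84, *Ube2s*, the enzyme that extends ubiquitin chains on targets of the complex, had -0.77, and *Mad2l1* had -0.54, or 0.47 without AEC 12.

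Of the 17 targets, 10 had a higher mean in HEC cells and 7 a lower one, and the median log2 ratio was 0.25, beside 52.4% of all genes above 0 and a median of 0.04. Under median-of-ratios scaling, where the median of all genes was -0.19, the median of the targets was 0.05. *Aurka*, a mitotic kinase, had a log2 ratio of 1.01, and *Plk1* and *Rrm2*, a further mitotic kinase and a subunit of ribonucleotide reductase, had -1.03 and -1.08. *Kif22* had 0.70. *Aurka* was at 0.89 without HEC 2 and at 1.45 without AEC 5. Without AEC 24, *Plk1* was at -0.69 and *Rrm2* at -0.87, and without their top HEC cells they were at -1.23 and -1.39. *Aurka*, *Plk1* and *Rrm2* thus each fell short of 2-fold when a single cell was left out. Of 15 G2/M genes, 10 were higher and 5 lower, again beside 52.4%, with a median of 0.08 that was -0.15 under that scaling. *Kif20b* (1.41), *Cenpf* (0.73), *Cdk1* (-0.71) and *Smc4* (0.70) lay farthest from 0. The *Cdk1* ratio was -0.26 without AEC 21, which held 31.1% of its AEC sum, and -0.78 without HEC 12. Of 16 S phase genes, 12 were higher and 4 lower, beside the same 52.4%, with a median of 0.27 that was -0.01 under that scaling, and the farthest were *Mcm3* at 0.80, *Slbp* at 0.75, *E2f8* at 0.65 and *Mcm4* at 0.64. None of these genes differed by more than the SD of both groups.

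**Figure D5:**
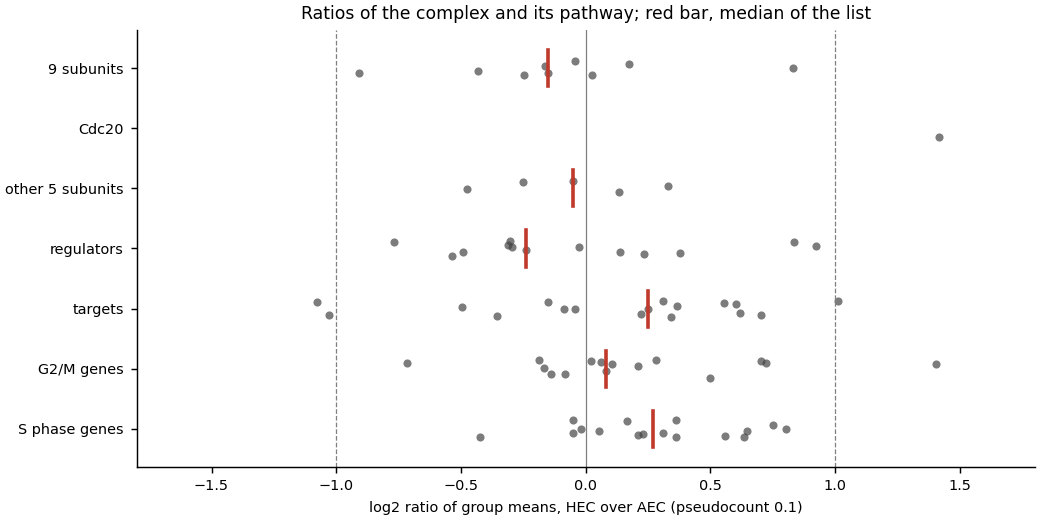
Log2 ratio of group means, HEC over AEC, for the 9 subunits, *Cdc20*, the other 5 subunits and the lists of regulators, targets, G2/M and S phase genes. Each point is a gene, red bars are list medians and dashed lines mark 2-fold. *Cdc20* at 1.42 lies past 2-fold and the 9 subunits lie between -0.91 and 0.83.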

How the data were processed

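The authors deposited 1 table per cell, whose signal is the reads of a transcript per 10000 reads of that cell. Per the submitters' processing notes, minimap2 2.18-r1015, Salmon 1.1.0 and build mm10 were used; no source used here gives the annotation or the use of strand. Of the values, 100% were whole multiples of the smallest value in their cell within 0.01 of a read, so reads and depth (13261 to 8897958 per cell) were recovered. GENCODE M21 matched 52799 of 52927 transcripts, and the other 128 were left out. Values were summed per gene in Python 3.11.15 (pandas 2.3.3, numpy 2.4.6), with scipy 1.17.1 for correlations and intervals and matplotlib 3.10.9 for figures. Genes with a mean of at least 0.1 formed the background of levels. For isoforms it held genes with at least 2 transcripts and a mean of at least 0.5 and values above 0 in at least 12 cells, both in each group. Intervals cover counting error only. The ratio computation was tested on simulated data. Exon structures came from GENCODE M21, and the promoter from RefSeq (GRCm38.p6).

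The members, lists and tests were chosen with earlier results of these data known. All 10 members were named, with isoforms of at least 10% in either group. Of each other list, the text names the 4 genes farthest from a ratio of 0 among those above 0 in 12 or more cells, and it names all of the other 5 subunits. Alternatives covered pseudocounts, scaling, weighting of cells and leaving out cells.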

Additional observations from a re-analysis of the deposited data

How the results depend on the processing

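Of 241 alternative values for 24 results, 211 stayed within the spread between cells or within 1.5 times a count, and 30 did not. This spread is an SD between single cells and not the error of a mean, so large moves stay within it. *Cdc23* moved from -0.15 to 0.76 without AEC 12, and *Anapc4* from 0.17 to -0.45 by pooled reads. Both moves changed sign but count among the 211. Dropping the minimum mean of 0.1 could not move the counts of members, since each member was above it. Among the members only *Cdc20* was past 2-fold, and none of its alternative ratios was below 0. Scaling by median of ratios moved the median of all genes by -0.23; with it the subunit sum was at -0.49, 2 of the members were above 0 (38.5% of all genes) and 1 was at or below -1 (15% of all genes), while *Cdc20* was at 1.2, or 1.39 relative to all genes. The difference of mean log2 values put *Anapc5* at 0.44, 9 members above 0 and 2 at or above 1, where 76.7% and 13.8% of all genes were. The count at or above 1 was 0 with a pseudocount of 1 and 2 without AEC 12, a setting chosen after seeing the data. The count at or below -1 was 1 with a pseudocount of 0.01 and 1 when the 4 cells low in *Cdh5* and *Kdr* were left out.

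Among isoform shares, those of Cdc23-201, Cdc27-201 and Cdc20-201 moved by more than the smaller SD of the 2 groups. For Cdc23-201 the SDs were 1.85 in AEC and 29.5 in HEC cells. For Cdc27-201 they were 34.1 and 2.69, and no move of either isoform exceeded its larger SD. The Cdc23-201 difference was 14.9 points, and 8.05 by pooled reads, 11.6 over cells with at least 20 reads, 17.5 leaving out the 6 AEC and 6 HEC cells with fewest genes, 12.5 without AEC 12, and 7.07 to 17 leaving out 1 cell. That of Cdc27-201 was 15.9, and 9.31 by pooled reads, 12.2 without the few-gene cells, 12.8 without the 6 shallowest AEC cells, and 6.11 to 21.5 leaving out 1 cell. That of Cdc20-201 was 3.73, and 0.0513 by pooled reads, 0 as a mean over cells with at least 10 or 20 reads, 0 without the few-gene or the shallowest cells, 3.96 leaving out the 4 cells low in those genes, 3.81 without AEC 12, and 0 to 5.92 leaving out 1 cell; its spread between cells was 0, so any move counts. Moves within the spread included Anapc5-201 from 41.8 to 17.7 and Cdc16-201 from 42.4 to 34.8 by pooled reads, and Anapc2-201 from 16.8 to 0 without AEC 12. The cause of these moves was not tested. No paired analysis was possible because the results come from no test and the shared cell numbers name no common animal. Depth limits shares in cells with few reads of a gene.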
